A study of Mus musculus with 12 samples.

Results

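Of the 35275 genes in the count table, 10 that encode laminin chains and the proteins that link laminin to the rest of the basement membrane were followed across the 12 RNA-Seq libraries of cultured mouse cardiac fibroblasts. They are defined by gene name and by no measured value, although the list was drawn up with earlier results of these data known. They are the laminin α chains Lama2, Lama4 and Lama5, the β chains Lamb1 and Lamb2, the γ chain Lamc1, the nidogens Nid1 and Nid2, and the heparan sulfate proteoglycans Hspg2 (perlecan) and Agrn (agrin). All 10 passed the filter on low counts and were among the 15150 genes tested, with 172 to 35104 counts per gene and library.

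The cells came from hearts of 12-week-old C57BL/6 mice (C57BL/6J in the paper) and were used at passage 2. The cell type label gives Smad7 floxed mice as the source in all 4 groups, whereas the titles of the 6 control libraries call their cells Wild Type. All groups were infected with adenovirus (48 h, multiplicity of infection 100). The Smad7KO group received virus expressing the Cre recombinase, and the control group received a control virus, which the labels describe as expressing GFP and the paper as empty. One group of each genotype was left unstimulated and one received TGF-β1 at 10 ng/ml, for 2 h in one label field and 4 h in another. Each group had 3 libraries, which the series calls independent samples. Whether they came from separate animals is not stated, so p values measure the spread between these samples.

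A basement membrane is a thin sheet of extracellular matrix at the cell surface. Laminins are trimers of an α, a β and a γ chain that polymerize on the cell surface, where the α chain binds integrins and dystroglycan. Nidogens bridge the laminin γ1 chain to the type IV collagen network, and perlecan and agrin add heparan sulfate and further links to laminin and dystroglycan. In the heart, laminin with the α2 chain surrounds cardiomyocytes, laminins with α4 and α5 are found in vessel walls, and fibroblasts are a source of matrix of this kind. TGF-β stimulates matrix synthesis in fibroblasts, and Smad7 is an inhibitory Smad that restrains TGF-β signaling and is itself induced by TGF-β.

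Promoter sequences are shown for both β chains, for Lama2 and for Nid1, because the balance between chains of one family is the pattern described last and Smads act on promoters. RefSeq promoter windows on GRCm38.p6 were matched for 7 of the 10 genes. Lama4, Lamc1 and Nid2 had no entry. Each line gives, 5′ to 3′ on the gene's strand, the bases before the RefSeq start site that lie outside annotated exons, and capitals mark each Smad half-site searched (CAGAC or its reverse complement GTCTG). The windows are chr10:27616943-27617192 on the minus strand for Lama2, chr12:31265043-31265233 on the plus strand for Lamb1, chr9:108479612-108479735 on the plus strand for Lamb2, and chr13:13437352-13437550 on the plus strand for Nid1.
Lama2: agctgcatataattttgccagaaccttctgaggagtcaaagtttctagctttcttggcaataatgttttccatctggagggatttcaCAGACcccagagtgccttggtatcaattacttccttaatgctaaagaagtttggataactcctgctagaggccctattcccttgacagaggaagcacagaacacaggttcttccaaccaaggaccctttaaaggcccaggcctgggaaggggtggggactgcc
Lamb1: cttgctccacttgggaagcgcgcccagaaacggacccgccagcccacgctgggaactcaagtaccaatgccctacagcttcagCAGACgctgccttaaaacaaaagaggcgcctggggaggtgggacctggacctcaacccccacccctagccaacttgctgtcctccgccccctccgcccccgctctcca
Lamb2: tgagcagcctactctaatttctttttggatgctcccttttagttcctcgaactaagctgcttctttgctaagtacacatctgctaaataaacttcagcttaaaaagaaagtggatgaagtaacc
Nid1: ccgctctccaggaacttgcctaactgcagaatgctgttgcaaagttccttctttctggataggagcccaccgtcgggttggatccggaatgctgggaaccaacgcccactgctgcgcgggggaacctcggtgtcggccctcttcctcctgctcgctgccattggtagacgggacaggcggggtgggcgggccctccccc
Lama2 and Lamb1 each held 1 half-site in the bases shown, and Lamb2 and Nid1 held 0. Of the matched windows that are not shown, that of Lama5 held 1, and those of Hspg2 and of both Agrn start sites held 0. The bases shown number 250 for Lama2, 191 for Lamb1, 124 for Lamb2 and 199 for Nid1. Left out as exon next to the start site were 59 bases for Lamb1, 126 for Lamb2 and 51 for Nid1. The Lama2 window lies inside the interval of that gene in the count table (26980036 to 27619758), downstream of the 5′ end given there. Of all 32851 RefSeq promoter windows of 250 bases, 42.2% held at least 1 such 5-letter match on either strand, so a match is common. The GC box GGGCGG, searched on both strands, was found in 32.7% of all windows. It had 0 matches in Lama2 and Lamb2, 1 in Nid1, 2 in Lamb1, 4 in the Lama5 window, 5 in that of Hspg2, and 12 and 2 in the windows of both Agrn start sites. A match describes the letters only.

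Smad7 itself was the check on the labels. Its level, in CPM (counts scaled to a common library size by TMM), was 71.4, 74.6 and 77.2 in unstimulated control libraries and 28.6, 28.4 and 31.1 in unstimulated Smad7KO libraries. With TGF-β1 it was 145, 150.3 and 142 in control and 80.8, 70.0 and 79.5 in Smad7KO. Every Smad7KO library was below every control library with the same stimulation, but transcript counted on the gene remained in Smad7KO cells. Totals were 19056916 to 25371321 counts per library. The 8 fibroblast markers summed to 7147 to 10980 CPM and were detected in all groups, beside 14010 to 23010 CPM for 7 macrophage markers. The 12 endothelial markers summed to 297 to 348 CPM in control libraries and to 52.0 to 62.3 CPM in Smad7KO libraries. In bulk RNA, fewer cells of a type and less RNA per cell cannot be told apart.

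Per gene length, perlecan was the most abundant of these transcripts and laminin α5 the least. Hspg2 averaged 66.5 FPKM (counts scaled for gene length and library total) over the 12 libraries, and Lama5 averaged 2.50. Between them stood Lamc1 at 43.8, Lamb2 at 42.3, Lamb1 at 40.9, Nid1 at 37.4, Lama4 at 24.8, Nid2 at 19.1, Lama2 at 12.4 and Agrn at 6.91 FPKM. Within libraries, Hspg2 lay above Lamc1, Nid1 above Lama4, Lama4 above Nid2, Lama2 above Agrn and Agrn above Lama5 in 12 of 12. The γ1 chain, both β chains and nidogen 1 could not be ordered, since Lamc1 exceeded Lamb2 in 6 of 12 libraries, Lamb2 exceeded Lamb1 in 6 and Lamb1 exceeded Nid1 in 8. Nid2 exceeded Lama2 in 8 of 12.

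The control libraries differed among themselves in these genes as a block, and this spread bears on every comparison below. In the unstimulated control group, library 2 had the lowest and library 3 the highest level of all 10 genes. In the TGF-β1 control group, library 2 was lowest and library 1 highest for all 10. Hspg2 was at 769, 308 and 1481 CPM in unstimulated control libraries 1 to 3, a span of 4.81-fold, against 1189, 913 and 940.2 CPM in the Smad7KO libraries. Lama5 spanned 4.03-fold (23.2, 9.83 and 39.6 CPM) in unstimulated control and 1.02-fold (32.3, 32.1 and 32.9 CPM) in Smad7KO. Smad7 did not move with this block: it deviated from its group mean by 0.0035 on the log2 scale in control library 2, where the median of the 10 genes was -0.94. Fibroblast markers did move with it, and macrophage markers ran against it in the unstimulated group. In unstimulated control libraries 1 to 3 the fibroblast markers summed to 9884, 7147 and 10980 CPM and the macrophage markers to 18990, 23010 and 14220 CPM, so library 2 was lowest in the first and highest in the second, and library 3 the reverse. In TGF-β1 control libraries the fibroblast sums were 9718, 9007 and 9225 CPM, highest in library 1 and lowest in library 2. The macrophage sums there were 14010, 16130 and 16400 CPM, lowest in library 1 but highest in library 3. The part of these markers in the levels of the 10 genes was not tested.

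**Figure D1:**
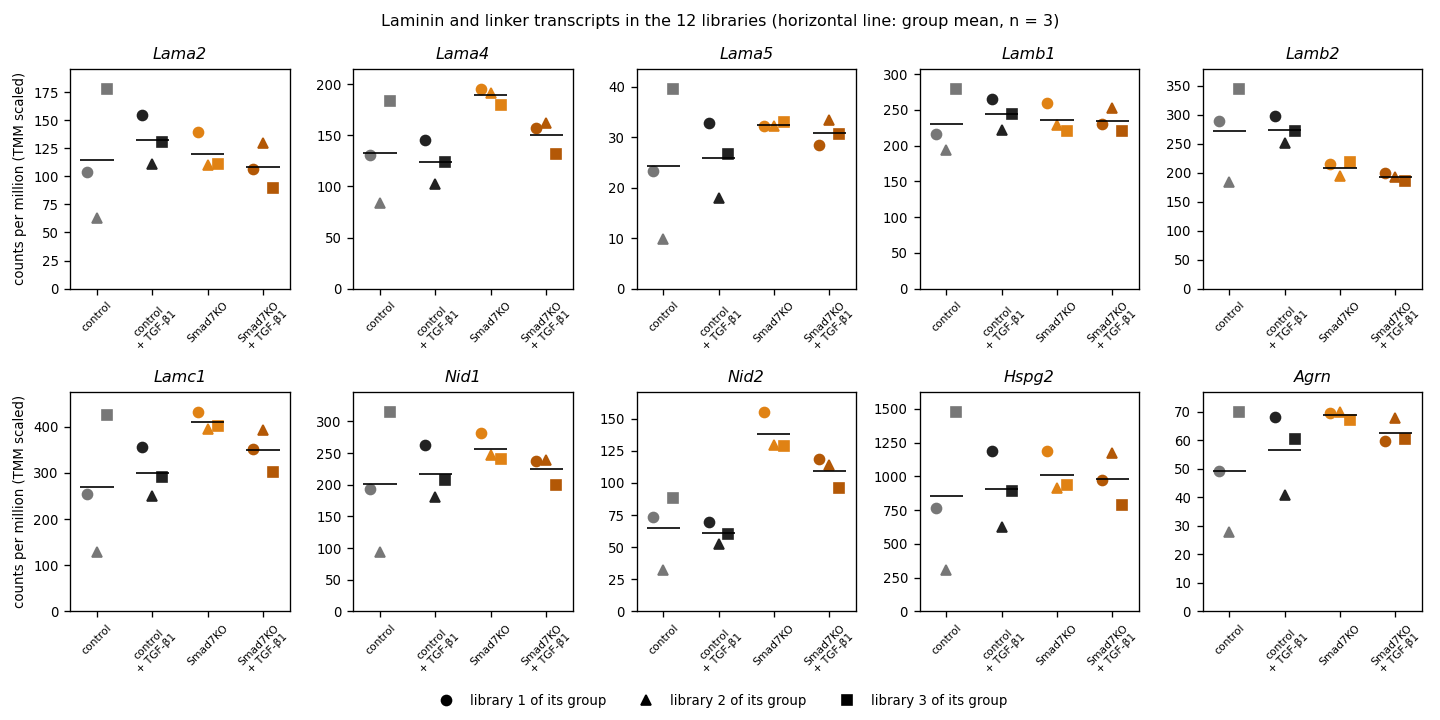
Level of each of the 10 genes (CPM after TMM scaling, axes from 0) in each library, by group, with the marker shape giving the library number and the line the group mean of 3 libraries. Unstimulated control library 2 (triangle) is the lowest and library 3 (square) the highest of its group in all 10 panels, and the Nid2 levels of both Smad7KO groups lie above all control levels.

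All 10 genes are long, with 4884 to 14187 bases in the table against a median of 3007 for the tested genes, and library differences across all genes ran with gene length. In unstimulated control library 2 the median deviation of the 10 genes from their mean over the libraries was -1.13 on the log2 scale, whereas the trend of all tested genes at the same lengths was -0.66. In control library 3 these values were 0.48 and 0.21, and in TGF-β1 control library 2 they were -0.41 and -0.23. The trend was -0.24 in unstimulated control library 1, and 0.13 and -0.06 in TGF-β1 control libraries 1 and 3. In Smad7KO libraries 1 to 3 it was 0.20, 0.13 and 0.15 without stimulation and 0.14, 0.22 and 0.02 with TGF-β1. The trend at these lengths thus ran in part with genotype, and its removal bears on the genotype comparisons. The comparisons between groups are therefore also given with the length trend of each library removed, and the part of length in the results was not tested further.

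**Figure D2:**
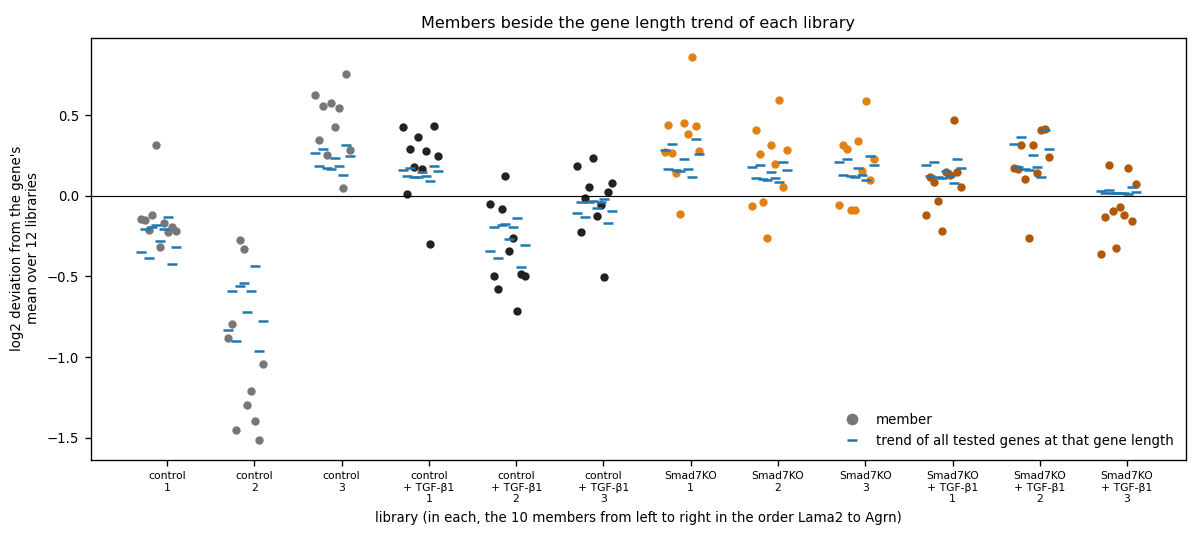
Deviation of each of the 10 genes from its mean over the 12 libraries (log2 CPM, points) beside the trend of all tested genes at the same gene length (dashes), by library. In unstimulated control library 2 the points reach -1.52 and the dashes -0.96, and in library 3 of that group all points lie above 0.

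In unstimulated cells, Smad7 deletion went with a higher level of Nid2, the only member called, and with no call in the other 9. Nid2, which encodes nidogen 2, was at 156, 129 and 129 CPM in Smad7KO libraries and at 73.4, 32.5 and 88.5 CPM in control libraries. The lowest Smad7KO library was above the highest control library. The mean rose from 64.8 ± 29.0 to 138 ± 15.3 CPM (SD, n = 3), a log2 fold change of 1.09 ± 0.28 (SE, edgeR quasi-likelihood adjusted p = 0.0195). The edgeR call was lost without Smad7KO library 1, 2 or 3 in turn, at an adjusted p of 0.070, 0.051 and 0.0501, and with only the 6 libraries of this comparison, at 0.107. DESeq2 called Nid2 both on those 6 libraries (adjusted p = 0.020) and on all 12 (adjusted p = 0.0014). Its log2 fold change was 0.77 without control library 2 and 1.38 without control library 3.

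The other member of the nidogen pair, Nid1, was at 282, 248 and 240.3 CPM in unstimulated Smad7KO and at 193, 93.5 and 315 CPM in control libraries. These groups overlapped, and its log2 fold change was 0.35 ± 0.32 (SE, edgeR adjusted p = 0.407). Lamb2, the β2 chain, was the only member with a lower mean in Smad7KO, at 214, 194 and 218 CPM against 289, 185 and 345 CPM in control (log2 fold change -0.39 ± 0.18, edgeR adjusted p = 0.120). Its groups overlapped only through control library 2. The β1 chain, Lamb1, was at 259, 229 and 221 CPM against 216, 194 and 279 CPM, a log2 difference of 0.04 ± 0.14.

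Of the α chains, Lama4 was at 196, 192 and 180.2 CPM in unstimulated Smad7KO and at 130.4, 83.5 and 184 CPM in control (log2 fold change 0.51 ± 0.23, edgeR adjusted p = 0.109). The groups overlapped through control library 3 alone. Lama2, at 139, 110.4 and 111 CPM against 104, 62.5 and 178 CPM, had a log2 difference of 0.06 ± 0.30, and Lama5 one of 0.42 ± 0.37. Lamc1, the γ1 chain of most laminin trimers, was at 433, 394 and 402 CPM against 254, 129 and 425 CPM (log2 difference 0.60 ± 0.32, edgeR adjusted p = 0.162). Agrn was at 69.7, 70.0 and 67.2 CPM against 49.4, 27.9 and 70.1 CPM (0.49 ± 0.27), and Hspg2 had a log2 difference of 0.25 ± 0.43.

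Thus 1 of 10 members was called, where 25.8% of all tested genes were called, and 1 of 10 had groups that did not overlap, against 41.3% of all tested genes. The median log2 difference of the 10 was 0.39 and that of all tested genes, whatever their length, -0.02. At the lengths of the 10, the median trend of all tested genes was -0.24, -0.66 and 0.21 in unstimulated control libraries 1 to 3. In unstimulated Smad7KO libraries it was 0.20, 0.13 and 0.15, so the value of -0.02 does not allow for length. The number called turned on the control libraries. Without control library 3, 7 members were called, all higher in Smad7KO, where 51.5% of all tested genes were called. Without control library 2 there were 2, Nid2 higher (log2 0.77) and Lamb2 lower (-0.60), where 19.4% of all tested genes were called. After removal of the length trend, 4 were called, against 29.0% of all tested genes: Nid2 remained higher (log2 0.90, edgeR adjusted p = 0.0039), and Lamb2 (-0.65, 1.1e-04), Lama2 (-0.35, 0.028) and Lamb1 (-0.27, 0.023) were lower, the latter 2 with the sign turned.

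With TGF-β1 in both genotypes, the direction of Nid2 and Lamb2 was that of unstimulated cells, and no member was called by edgeR. Nid2 was at 118, 114 and 96.4 CPM in Smad7KO and at 69.7, 52.1 and 60.5 CPM in control, with no overlap (log2 difference 0.85 ± 0.28, SE, edgeR adjusted p = 0.068). Lamb2 was at 199.6, 193 and 185 CPM against 298, 252 and 273 CPM, again with no overlap (log2 difference -0.51 ± 0.18, edgeR adjusted p = 0.086). These 2 comparisons by genotype use different libraries. The direction of Nid2 and Lamb2 was thus the same in 2 sets of 6 libraries from the same series, although the Lamb2 groups overlapped in unstimulated cells. Both genes were singled out in these same data. Whether the sets came from separate animals is not stated, so the second set is no independent replication.

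The other 8 members had overlapping groups with TGF-β1. Lama2 was at 106, 130.0 and 89.6 CPM in Smad7KO and at 155, 111 and 131 CPM in control (log2 difference -0.28 ± 0.30), and Lama4 was at 157, 162 and 132 CPM against 146, 103 and 124 CPM (0.28 ± 0.23). Lama5, Lamb1, Lamc1, Nid1, Hspg2 and Agrn had log2 differences of 0.26, -0.06, 0.22, 0.05, 0.11 and 0.15, each smaller than its standard error. The 10 had a median log2 difference of 0.13, against -0.02 for all tested genes, a value that does not allow for gene length.

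So 0 of 10 members were called with TGF-β1, where 13.0% of all tested genes were, and 2 of 10 had groups apart, against 44.9% of all tested genes. At an unadjusted edgeR p under 0.05 there were 2, Nid2 and Lamb2, and DESeq2 on all libraries called 1, Nid2, against 10.8% of all genes it tested. After removal of the length trend edgeR called 3, against 23.2% of all tested genes, with Nid2 higher (log2 0.76, adjusted p = 0.011) and Lamb2 (-0.63, 1.6e-04) and Lama2 (-0.56, 0.0023) lower. Without control library 2, or without control library 3, which are not in this comparison but share its estimate of spread, Nid2 and Lamb2 were called, against 28.8% and 22.6% of all tested genes.

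**Figure D3:**
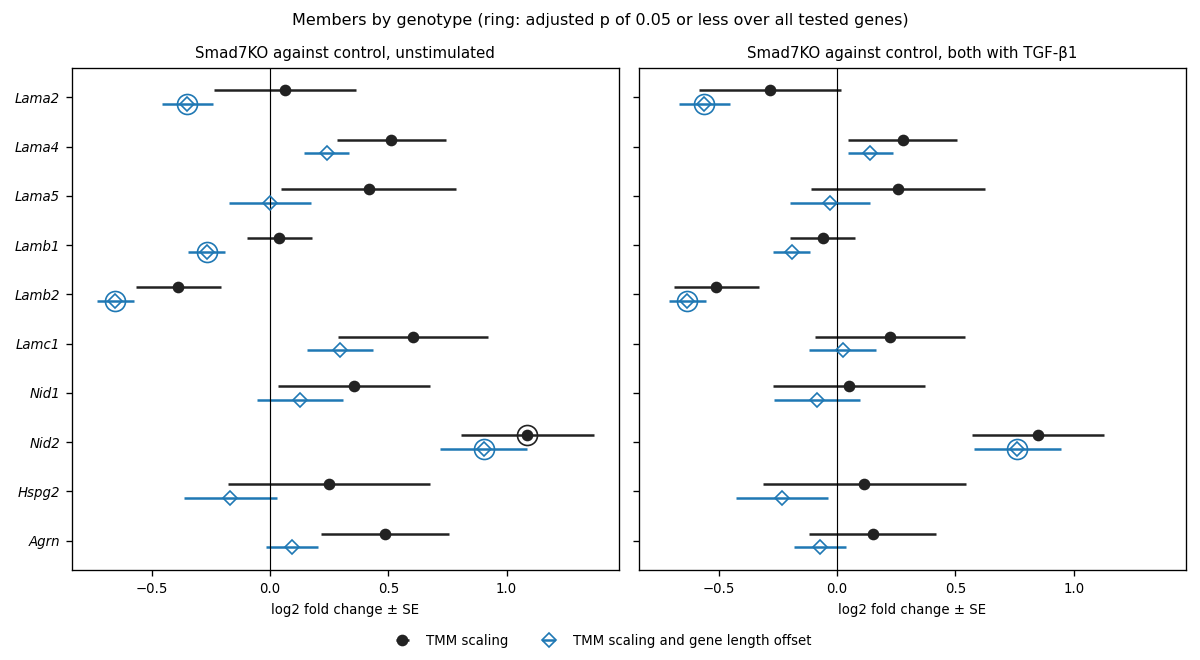
Log2 fold change of Smad7KO against control (± SE) for each member, unstimulated and with TGF-β1, by edgeR with TMM scaling (filled circles) and with the length trend also removed (open diamonds), where rings mark adjusted p of 0.05 or less over all tested genes. Nid2 lies right of 0 and Lamb2 left of 0 under both fits, and Nid2 without stimulation is the only ringed circle.

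TGF-β1 changed no member past the threshold in either genotype. In control cells, 0 of 10 were called against 8.37% of all tested genes, 0 of 10 had groups apart against 19.8%, and the log2 differences ran from -0.10 (Lama4) to 0.20 (Lama2). The largest standard error was 0.43, for Hspg2, and the 95% interval of the Hspg2 difference was -0.85 to 1.02, which reaches a 2-fold rise. For Lamb1, the member with the least spread, the interval was -0.22 to 0.39. With the length trend removed, 0 of 10 were called, against 14.5% of all tested genes, and the differences ran from -0.21 (Lama4) to 0.10 (Lama2). No member had an unadjusted edgeR p under 0.05, and DESeq2 on all libraries called 0, against 6.71% of all genes it tested.

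In Smad7KO cells all 10 members had lower means after TGF-β1, by -0.01 (Lamb1) to -0.33 (Nid2) on the log2 scale. Their median was -0.14, against -0.01 for all tested genes of any length. By edgeR 0 of 10 were called, against 10.2% of all tested genes. No member had an unadjusted p under 0.05, and DESeq2 on all libraries also called 0, against 7.55% of all genes it tested. The groups were apart for Lama4, Lamc1, Nid1 and Nid2, 4 of 10 against 39.0% of all tested genes, a share near the background. With only the 6 libraries of this comparison, where the control spread does not enter, edgeR and DESeq2 each called 2, Lama4 (log2 -0.32 by both tools, edgeR adjusted p = 0.0060) and Nid2 (-0.32 by both, edgeR adjusted p = 0.017). Of all genes tested in these fits edgeR called 26.3% and DESeq2 14.8%, so 2 of 10 is near the background. With the length trend removed, 1 of 10 was called, Lama4 (log2 -0.31, edgeR adjusted p = 0.039), against 16.3% of all tested genes.

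The interaction, which tests whether the response to TGF-β1 differs between genotypes, called 0 of 10 members against 0.0198% of all tested genes (3 of 15150). The estimates were negative for all 10, from -0.10 (Lamb1) to -0.38 (Lamc1), with standard errors of 0.19 to 0.60. With the length trend removed they ran from -0.27 (Lamc1) to 0.07 (Lamb1), with 0 called against 0.0528% of all tested genes. No member had an unadjusted edgeR p under 0.05, and DESeq2 called 0, against 0.0542% of all genes it tested.

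Within each library, the chains of one family could be compared with each other, and this balance varied less between unstimulated control libraries than the levels did. Over unstimulated control libraries the coefficient of variation of Nid2 was 44.7% for its CPM and 10.9% for its share of summed nidogen FPKM, and that of Lama4 was 37.9% for its CPM and 6.32% for its share of the 5 α chains. A share counts the gene in its own total, which by itself limits its variation. In Smad7KO libraries the share of Lama5 varied more than its CPM, at 6.77% against 1.30% without stimulation and 12.1% against 7.98% with TGF-β1. The share of a chain was computed from FPKM, which allows for gene length, and 10 differences in share were tested by a two-sided exact permutation test with labels exchanged within the other factor (400 arrangements, smallest possible p 0.005), with Benjamini-Hochberg adjustment over the 10.

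Nidogen 2 took a larger share of nidogen transcripts in Smad7KO cells. It made up 32.0%, 30.1% and 25.8% in unstimulated control libraries and 40.6%, 39.3% and 39.9% in unstimulated Smad7KO libraries. With TGF-β1 the shares were 24.7%, 26.4% and 26.5% in control and 38.2%, 37.1% and 37.5% in Smad7KO. All 6 Smad7KO libraries exceeded all 6 control libraries, by 11.2 percentage points on average (exact permutation p = 0.005, adjusted p = 0.0214). The share rests on the same libraries in which Nid2 was singled out by its level, so it is not a result separate from that level.

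Laminin β2 took a smaller mean share of β chains in Smad7KO than in control cells, and laminin β1 a larger one. Lamb2 made up 57.3%, 49.1% and 55.5% of β chain FPKM in unstimulated control and 45.7%, 46.1% and 50.0% in unstimulated Smad7KO libraries, which overlapped. With TGF-β1 it made up 53.3%, 53.3% and 53.0% in control and 46.9%, 43.8% and 46.1% in Smad7KO, with no overlap. The difference by genotype was -7.14 points (exact permutation p = 0.01, adjusted p = 0.0214). Lamb2 too was singled out by its level in these libraries, and its share is not separate from that level. Lamb3 held 0.47% to 0.94% of β chain FPKM over the 12 libraries.

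Among α chains, Lama4 held the most and Lama2 the next largest share in every group. Lama2 made up 31.1%, 30.6% and 34.8% in unstimulated control and 28.4%, 24.3% and 25.4% in unstimulated Smad7KO libraries. With TGF-β1 it made up 36.9%, 37.9% and 37.1% in control and 27.5%, 30.8% and 27.2% in Smad7KO. The groups did not overlap under either stimulation, and the difference by genotype was -7.48 points (exact permutation p = 0.005, adjusted p = 0.0214). Lama4 moved the other way, from a mean of 58.4% in control to 64.3% in Smad7KO libraries, a difference of 5.83 points (exact permutation p = 0.01, adjusted p = 0.0214), with overlap in unstimulated cells. Since Lama2 and Lama4 make up most of the α chain FPKM, a lower share of one largely fixes a higher share of the other, and these are not separate results. Lama5, at 4.06% to 7.85% of α chain FPKM, differed by 0.67 points (exact permutation p = 0.22, adjusted p = 0.244).

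TGF-β1 also shifted the shares of Lama2, Lama4 and Nid2. The share of Lama2 was 3.80 points higher with TGF-β1, that of Lama4 4.07 points lower and that of Nid2 2.87 points lower (exact permutation p = 0.015 and adjusted p = 0.0214 for each). In control cells the Lama2 groups were apart, with 36.9% to 37.9% after TGF-β1 and 30.6% to 34.8% before. In Smad7KO cells they overlapped. The share of Lamb2 differed by -1.19 points (exact permutation p = 0.435) and that of Lama5 by 0.77 points (exact permutation p = 0.155, adjusted p = 0.194). The shifts by genotype passed the threshold with any 1 library left out, and those by TGF-β1 did not when 1 TGF-β1 control library was left out. With the replicate number as a block, where the smallest possible exact p is 0.03125, all shifts by genotype and by TGF-β1 lost the call (adjusted p = 0.078).

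**Figure D4:**
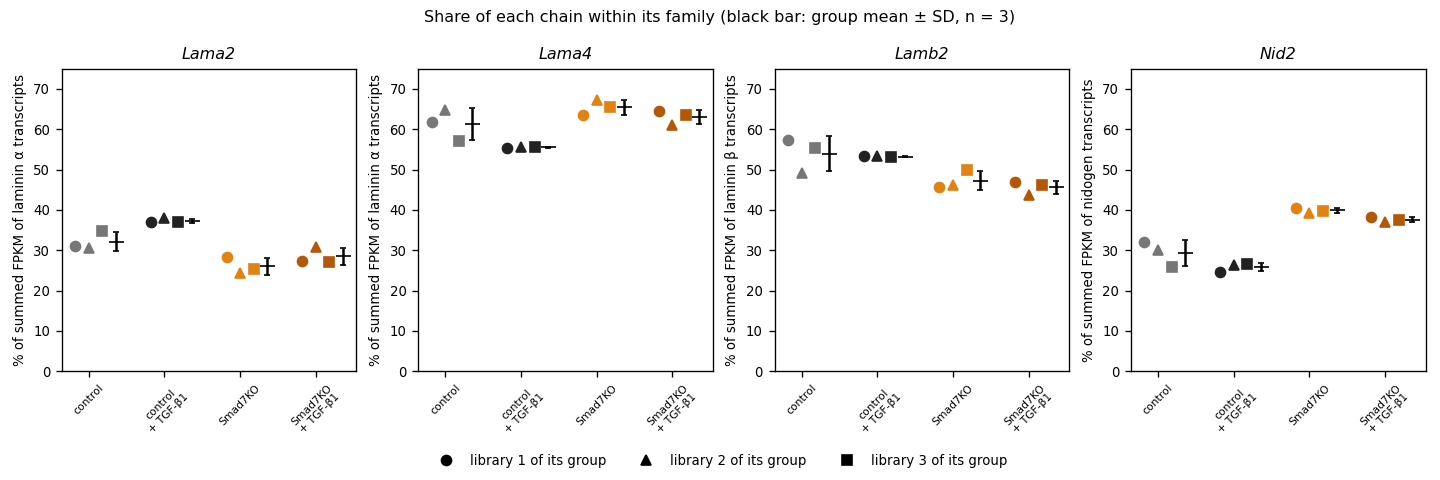
Share of Lama2 and Lama4 in summed laminin α FPKM, of Lamb2 in laminin β FPKM and of Nid2 in nidogen FPKM (percent, axes from 0) in each library, with the group mean ± SD of 3 libraries in black. All 6 Smad7KO libraries hold more Nid2 than all control libraries, 37.1% to 40.6% against 24.7% to 32.0%.

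The markers of other cell types moved with genotype beside these shares. Of all tested genes, 25.8% were called by genotype without stimulation and 13.0% with TGF-β1. Of the 11 endothelial markers tested, 8 were called lower and 1 higher in Smad7KO in each stimulation state, with none of the 12 at 0 in all 12 libraries. Of 7 macrophage markers, 3 were called higher and 0 lower in Smad7KO in each state, and their sums were 20250 to 22330 CPM in Smad7KO and 14220 to 23010 CPM in control without stimulation, which overlapped, and 19460 to 22100 CPM against 14010 to 16400 CPM with TGF-β1, which did not. The mesothelial markers summed to 262 to 308 CPM in control and 168 to 211 CPM in Smad7KO libraries, and the smooth muscle and pericyte markers to 55.4 to 106 CPM in unstimulated control and 44.0 to 50.8 CPM in unstimulated Smad7KO. With TGF-β1 the latter summed to 145 to 170 CPM in control and 107 to 111 CPM in Smad7KO, above the unstimulated libraries of the same genotype. Summed Schwann cell markers were 36.4 to 45.9 CPM in control and 50.0 to 56.05 CPM in Smad7KO, and those of cardiomyocytes 28.6 to 77.9 and 18.5 to 25.2 CPM. The Schwann cell markers did not move as one. Of 4 tested, 1 was called higher and 1 lower in Smad7KO without stimulation, and 0 higher and 1 lower with TGF-β1. Of the 8 fibroblast markers, 2 were called higher and 2 lower in each state. The part of all these cell types in the levels and shares of the laminins and nidogens was not tested.

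The rest of the basement membrane was followed through 61 further genes in 7 lists, 55 of which were tested. Col4a1 and Col4a2, which encode the chains of the ubiquitous type IV collagen, were not called in any comparison, with log2 differences of 0.26 and 0.23 in unstimulated Smad7KO and of -0.07 and -0.08 with TGF-β1. In unstimulated Smad7KO cells 3 of the 55 were called higher and 14 lower, where 25.8% of all tested genes were called. With TGF-β1 in both genotypes 2 were higher and 13 lower, where 13.0% of all tested genes were called. With the length trend removed, 4 were higher and 20 lower without stimulation, among them all 17 called before, and 3 were higher and 18 lower with TGF-β1, among them 14 of the 15 called before. In these 2 fits 29.0% and 23.2% of all tested genes were called.

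Among receptors, 1 of 11 tested was higher and 5 lower in unstimulated Smad7KO cells, where 25.8% of all tested genes were called. Itga6, the α6 subunit of laminin-binding integrins, rose from 88.1 ± 25.3 to 182 ± 1.63 CPM (log2 1.04 ± 0.19, edgeR adjusted p = 0.0034), and with TGF-β1 it was 243 ± 18.99 CPM in Smad7KO and 140 ± 23.7 CPM in control (0.80 ± 0.18, adjusted p = 0.016). Itgb4, the β4 subunit that pairs with α6 in hemidesmosomes, fell from 5.32 ± 2.37 to 1.21 ± 0.15 CPM (log2 -2.13 ± 0.40, adjusted p = 0.0047) and with TGF-β1 from 6.15 ± 0.08 to 0.64 ± 0.43 CPM (-3.23 ± 0.43, adjusted p = 8.7e-04). The other receptors called lower without stimulation, named here after their values were seen, were Bcam, a laminin α5 receptor (log2 -1.45), the integrin subunits Itga3 (-0.78) and Itga7 (-0.62), and the syndecan Sdc1 (-0.26, called in 11 of 26 alternative fits). With TGF-β1, Bcam (-1.34), Itga3 (-0.74) and Itga7 (-0.74) were again lower, beside Itgb4. Endothelial cells also express Itga6, Itgb4 and Bcam, their markers were lower in the same libraries, and their part in these values was not tested.

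Of the 6 proteases tested, 1 was higher and 1 lower in both genotype comparisons, in which 25.8% and 13.0% of all tested genes were called. Hpse, which encodes heparanase, the enzyme that cleaves the heparan sulfate chains of perlecan and agrin, rose from 78.1 ± 10.9 to 202 ± 6.75 CPM in unstimulated cells (log2 1.37 ± 0.12, edgeR adjusted p = 4.2e-05). With TGF-β1 it was 141 ± 4.90 CPM in Smad7KO and 54.5 ± 6.16 CPM in control (1.38 ± 0.12, adjusted p = 4.8e-05). TGF-β1 lowered it in control cells (-0.52 ± 0.12, adjusted p = 0.018) and in Smad7KO cells (-0.52 ± 0.12, adjusted p = 0.016). The Hpse calls by genotype held in all 26 alternative fits. Of 7 macrophage markers, 3 were also called higher and 0 lower in Smad7KO in each state, and the part of cell types in the Hpse values was not tested. The protease called lower, Mmp2, a gelatinase that also cleaves type IV collagen, had log2 differences of -0.67 without stimulation and -0.77 with TGF-β1.

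Of the 13 other basement membrane components tested, 0 were higher and 4 lower in unstimulated Smad7KO cells, and 0 and 5 with TGF-β1. Of all tested genes 25.8% and 13.0% were called, so 4 of 13 without stimulation is near the background. Smoc2, which encodes a calcium-binding matricellular protein, fell from 6.24 ± 1.32 to 2.21 ± 0.39 CPM without stimulation (log2 -1.49 ± 0.20, edgeR adjusted p = 7.1e-04), and its relative Smoc1 fell from 148 ± 8.12 to 53.9 ± 1.77 CPM with TGF-β1 (-1.46 ± 0.10, adjusted p = 1.2e-05). Smoc1 without stimulation (-1.48) and Smoc2 with TGF-β1 (-1.13) were lower as well, as were Tinagl1 (-1.24 and -1.15) and Ntn4 (-0.68 and -0.75) in both states. Sparc, an abundant collagen-binding protein, was called lower in the comparison with TGF-β1 (-0.48), a call kept in 9 of 26 alternative fits and lost with the length trend removed. Of 6 type IV collagen chains 1 was called, Col4a4, which was lower in Smad7KO at 1.82 ± 0.34 against 5.47 ± 1.70 CPM unstimulated and at 1.91 ± 0.30 against 5.302 ± 1.41 CPM with TGF-β1. Of the 4 other laminin chains tested 1 was called, Lama3, at 8.54 ± 1.05 CPM in Smad7KO and 2.94 ± 2.103 CPM in control without stimulation (log2 1.51 ± 0.44, adjusted p = 0.031).

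Dystroglycan, the receptor that laminin, perlecan and agrin bind, depends on a set of glycosylating enzymes, of which 8 were tested and 1 was called lower in each comparison by genotype, Pomgnt2 without stimulation (log2 -0.73) and Pomgnt1 with TGF-β1 (-0.40). Of 7 genes of the dystrophin complex, which anchors dystroglycan to the cytoskeleton, 0 were higher and 2 lower in unstimulated Smad7KO cells, and 0 and 1 with TGF-β1. In these comparisons 25.8% and 13.0% of all tested genes were called, so the counts of both lists are near or below the background. Sgce, which encodes a sarcoglycan, was lower in both states (-0.78 and -0.59). With TGF-β1, 2 of the 55 genes were called higher and 2 lower in control cells, and 1 higher and 4 lower in Smad7KO cells. These are 7.27% and 9.09% of the 55, near the 8.37% and 10.2% of all tested genes. With the length trend removed 9 and 10 were called, which include all but Frem1 of these, against 14.5% and 16.3% of all tested genes. Dtna, which encodes the complex member α-dystrobrevin, fell from 10.0 ± 1.93 to 5.99 ± 0.74 CPM in control (log2 -0.74 ± 0.17, edgeR adjusted p = 0.016) and from 13.4 ± 0.64 to 6.26 ± 0.89 CPM in Smad7KO (-1.10 ± 0.17, adjusted p = 0.0011).

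Ntn4, which encodes netrin 4, a protein that binds laminin γ chains, was higher with TGF-β1 in both genotypes, at 99.2 ± 5.42 against 74.1 ± 5.24 CPM in control (log2 0.42 ± 0.10, edgeR adjusted p = 0.017) and at 58.9 ± 0.96 against 46.4 ± 3.67 CPM in Smad7KO (0.34 ± 0.10, adjusted p = 0.043). Itga6 was higher with TGF-β1 in control cells (0.67 ± 0.18, adjusted p = 0.046), and Lama3 (-1.54 ± 0.44, adjusted p = 0.048) and Frem1, a basement membrane adhesion protein (-0.96 ± 0.26, adjusted p = 0.040), were lower with TGF-β1 in Smad7KO cells. These 3 calls, and that of Ntn4 in Smad7KO, were near the threshold and were lost in about as many alternative fits as kept them or more: Itga6 was called in 10 of 26, Ntn4 in 11 of 26, Lama3 in 12 of 24 and Frem1 in 10 of 24. No gene of the 55 was called for the interaction.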

How the data were processed

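RNA-Seq of polyadenylated RNA was analysed for the 12 libraries in 4 groups of 3. The authors deposited unnormalized read counts per gene and FPKM values, and dividing each count by the gene's length and its library's total gave the FPKM for all 35275 genes (relative tolerance 1e-06). The submitters' processing notes name CASAVA, TopHat2 2.0, HTSeq 0.6.1 and Cufflinks 2.1.1, with mm10 and GRCm38.p6. Their roles and the strand setting are not given in the sources used here, so reads from overlapping genes are uncertain. Of the identifiers, 34490 were in GENCODE M21. Per-sample columns left unused numbered 0.

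Genes were kept with filterByExpr (minimum count 10), scaled by TMM and fitted to all 12 libraries with the quasi-likelihood test of edgeR 4.0.16 in R 4.3.3. Genes with a Benjamini-Hochberg adjusted p of 0.05 or less over all 15150 tested genes were called. Standard errors came from each coefficient and its F value. Shares within families used the deposited FPKM and exact permutation, and the smallest two-sided exact p for 3 libraries against 3 alone is 0.1. Alternatives used DESeq2 1.42.0 with its size factors, limma 3.58.1 on log2(FPKM + 1), other filters and pseudocounts, the replicate number as a block, each library left out, and an edgeR offset that removes each library's loess trend (span 0.3) on gene length. An offset on length and GC content, and leaving out library 2 of both control groups together, were added after the data were seen. The procedures were tested on simulated data that had the same spread in every group. The spread of these libraries differed between groups, so the simulation does not show how the tests behave here. Totals were 19056916 to 25371321 counts per library. Within groups, libraries differed by more than counting error, so no 2 were counted as 1. Such an excess cannot show that they came from separate animals or cultures. The common biological coefficient of variation was 0.33 in unstimulated control and 0.053 in unstimulated Smad7KO, and 0.14 and 0.10 with TGF-β1.

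The 10 members, the wider lists, the markers and the tests were chosen with earlier results of these data known. All members were named in each comparison. From the wider list, the 3 called genes with the largest rise and the 3 with the largest fall per comparison were named, besides Col4a1 and Col4a2, and the other called genes were named after their values were seen.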

Additional observations from a re-analysis of the deposited data

How the results depend on the processing

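The 7 shifts in share that passed the threshold kept their direction under every alternative run. With the replicate number as a block (sign exchanges within numbered pairs, smallest possible exact permutation p 0.03125) all 7 lost the call at an adjusted p of 0.078, with unchanged differences of -7.48 (Lama2), 5.83 (Lama4), -7.14 (Lamb2) and 11.2 points (Nid2) by genotype and 3.80, -4.07 and -2.87 points (Lama2, Lama4, Nid2) by TGF-β1. Over 18 same-numbered pairs the deviations from group means correlated from -0.36 to 0.52 (median 0.024), with 1 above 0.1, library 2 of both control groups. Over 36 pairs with different numbers they correlated from -0.56 to 0.55 (median -0.011), with 7 above 0.1. With 3 libraries per group, these values cannot decide whether the numbers pair the libraries. In edgeR without an offset the block changed no count of members called. Without library 2 of both control groups the TGF-β1 shifts lost the call (3.24, -3.20 and -2.79 points, adjusted p = 0.071). With 1 library left out, the TGF-β1 shifts ran from 3.22 to 4.46 (Lama2), -5.10 to -3.17 (Lama4), -3.75 to -2.18 (Nid2) and -2.41 to -0.35 points (Lamb2, which passed without control library 2).

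The number of members called by genotype without stimulation was 0 with edgeR on only its libraries (4.54% of all tested genes called), 4 with either offset, with or without the block (27.0% to 30.9%), 2 without library 2 of both control groups (22.8%), and 0 to 7 with 1 library left out (9.9% to 51.5%). With TGF-β1 it was 1 by DESeq2 on all libraries (10.8%), 2 by DESeq2 or edgeR on only its libraries (18.6% and 30.8%), 3 with either offset, with or without the block (21.3% to 24.3%), 2 without library 2 of both control groups (17.9%), and 0 to 2 with 1 library left out (5.7% to 28.8%). For TGF-β1 in Smad7KO cells it was 2 by DESeq2 or edgeR on only its libraries (14.8% and 26.3%) and 1 with either offset (14.9% to 17.6%), except 0 with the length offset and block. For TGF-β1 in control cells and the interaction it was 0 in every fit. Single members that were not called often turned sign, and only Lama2 and Lamb1 by genotype without stimulation were called after turning. With the length offset, signs turned for Lamb1 (-0.063) and Lamb2 (-0.11) in the TGF-β1 comparison in control cells, for Lamb1 (0.012) in the TGF-β1 comparison in Smad7KO cells, for Lama2 (-0.35), Lamb1 (-0.27) and Hspg2 (-0.17) in the genotype comparison without stimulation, for Lama5 (-0.030), Nid1 (-0.085), Hspg2 (-0.23) and Agrn (-0.072) in the genotype comparison with TGF-β1, for Lamb1 (0.075) and Lamb2 (0.021) in the interaction. With this offset and the replicate block, signs turned for Lamb1 (-0.061) and Lamb2 (-0.10) in the TGF-β1 comparison in control cells, for Lamb1 (0.012) in the TGF-β1 comparison in Smad7KO cells, for Lama2 (-0.35), Lamb1 (-0.27) and Hspg2 (-0.14) in the genotype comparison without stimulation, for Lama5 (-0.024), Nid1 (-0.079), Hspg2 (-0.22) and Agrn (-0.066) in the genotype comparison with TGF-β1, for Lamb1 (0.073) and Lamb2 (0.017) in the interaction. With the length and GC offset, signs turned for Lama5 (-0.11), Lamb1 (-0.10), Lamb2 (-0.20), Hspg2 (-0.076) and Agrn (-0.028) in the TGF-β1 comparison in control cells, for Lama2 (-0.34) and Lamb1 (-0.26) in the genotype comparison without stimulation, for Nid1 (-0.084), Hspg2 (-0.054) and Agrn (-0.0036) in the genotype comparison with TGF-β1, for Lamb1 (0.082) and Lamb2 (0.016) in the interaction. With that offset and the replicate block, signs turned for Lama5 (-0.10), Lamb1 (-0.10), Lamb2 (-0.20), Hspg2 (-0.074) and Agrn (-0.029) in the TGF-β1 comparison in control cells, for Lama2 (-0.34) and Lamb1 (-0.25) in the genotype comparison without stimulation, for Nid1 (-0.079), Hspg2 (-0.039) and Agrn (-0.00019) in the genotype comparison with TGF-β1, for Lamb1 (0.078) and Lamb2 (0.015) in the interaction. Without library 2 of both control groups, signs turned for Lama5 (-0.072), Lamb2 (-0.14), Lamc1 (-0.064), Nid1 (-0.11) and Hspg2 (-0.11) in the TGF-β1 comparison in control cells, for Lamb1 (0.0035) in the TGF-β1 comparison in Smad7KO cells, for Lama2 (-0.24), Lamb1 (-0.074) and Hspg2 (-0.16) in the genotype comparison without stimulation, for Nid1 (-0.060), Hspg2 (-0.083) and Agrn (-0.032) in the genotype comparison with TGF-β1, for Lama5 (0.017), Lamb2 (0.048) and Hspg2 (0.073) in the interaction. With DESeq2 size factors, signs turned for Lamb2 (-0.0023) in the TGF-β1 comparison in control cells. By DESeq2, signs turned for Lamb2 (-0.00075) in the TGF-β1 comparison in control cells. By limma on log2(FPKM + 1), signs turned for Nid2 (0.033) in the TGF-β1 comparison in control cells. By limma on log2(FPKM + 0.1), signs turned for Nid2 (0.047) in the TGF-β1 comparison in control cells. By limma without the filter, signs turned for Nid2 (0.033) in the TGF-β1 comparison in control cells. With the replicate block, signs turned for Hspg2 (0.0013) in the TGF-β1 comparison in Smad7KO cells. Where a sign turned with 1 library left out, values ran over a range. In the TGF-β1 comparison in control cells, these values were Lama2 -0.10 to 0.67, Lama4 -0.34 to 0.22, Lama5 -0.28 to 0.64, Lamb1 -0.024 to 0.25, Lamb2 -0.21 to 0.22, Lamc1 -0.18 to 0.65, Nid1 -0.23 to 0.60, Nid2 -0.41 to 0.20, Hspg2 -0.32 to 0.75 and Agrn -0.083 to 0.54. In the TGF-β1 comparison in Smad7KO cells, these values were Lamb1 -0.071 to 0.056 and Hspg2 -0.20 to 0.079. In the genotype comparison without stimulation, these values were Lama2 -0.23 to 0.53, Lamb1 -0.065 to 0.21 and Hspg2 -0.15 to 0.92. In the genotype comparison with TGF-β1, these values were Lamb1 -0.12 to 0.0062, Nid1 -0.054 to 0.21, Hspg2 -0.076 to 0.36 and Agrn -0.027 to 0.31. In the interaction, these values were Lama4 -0.55 to 0.024, Lama5 -0.71 to 0.22, Lamb1 -0.27 to 0.022, Lamb2 -0.33 to 0.11, Nid1 -0.79 to 0.051, Nid2 -0.53 to 0.10 and Hspg2 -0.80 to 0.28. Apart from the offsets, which by construction remove a trend, the cause of these changes was not tested.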
